A study of Mus musculus with 24 samples.

Results

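The genes described here encode the machinery that first commits a dividing cell to a new cycle: the D-type cyclins Ccnd1, Ccnd2 and Ccnd3, their kinase partners Cdk4 and Cdk6, and the inhibitors Cdkn1b, Cdkn2c and Cdkn2d. They were taken by name from a table of 56748 mouse genes, and all 8 were found and were among the 12904 genes tested. It covered 24 libraries of C2C12, a mouse myoblast cell line that divides in serum and can fuse into myotubes, here with a lentivirus that expresses uncoupling protein 1 (UCP1) under doxycycline. At 24 h after seeding the cells were given doxycycline or water, 24 h later a treatment was started, and RNA was collected at 16 h. The treatments were 51 µM bovine serum albumin (the BSA group), 300 µM oleic acid (OA) and 1 µM oligomycin together with 300 µM oleic acid (OOA). The same treatments with doxycycline made the groups Dox_BSA, Dox_OA and Dox_OOA, so that 6 groups of 4 libraries were compared. Every group carried the UCP1 vector and none had doxycycline without it, so effects of the drug and of UCP1 cannot be told apart. How much albumin the oleic acid media held is not stated in the labels.

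As background, D-type cyclins are made in response to growth signals and bind CDK4 or CDK6, and the active kinases phosphorylate the retinoblastoma protein, which releases E2F factors and opens S phase. The INK4 proteins, among them p18 from Cdkn2c and p19 from Cdkn2d, bind CDK4 and CDK6 and keep the cyclin off. The CIP/KIP protein p27, from Cdkn1b, binds whole cyclin-kinase complexes and blocks CDK2 in particular. In myoblasts cyclin D1 is known to hold back differentiation, while cyclin D3, p21, p27 and p18 are linked with exit from the cycle into myotubes. Oligomycin blocks ATP synthase, and UCP1 is a carrier that lets protons re-enter the mitochondrial matrix without passing through it.

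The libraries held 20370651 to 29410667 reads. Ucp1 averaged 4.42 to 6.84 FPKM (fragments scaled by gene length and library size) in the water groups and 336.5, 322 and 214.9 FPKM in Dox_BSA, Dox_OA and Dox_OOA, which matched the labels. The 8 myoblast markers all reached 1 FPKM, and their summed level was 807 to 1095 FPKM. Vim made up most of that sum, with group means of 697 to 886 FPKM. Group means were 25.5 to 62.2 FPKM for Myod1 and 1.7 to 2.2 for Pax7. Of the 8 myotube markers 6 reached 1 FPKM. No adipocyte, endothelial or epithelial marker did, and Adipoq, Plin1, Krt8 and Krt18 were listed at 0 throughout. Of the 5 leukocyte markers only Cd68 reached 1 FPKM, with Adgre1 and Itgam at 0, and of the 4 fibroblast markers 3 did. Changes are given on the log2(FPKM + 1) scale with the standard error (SE) of a limma fit, and a gene passed at an adjusted p (Benjamini-Hochberg over all genes tested) under 0.05. Since no label states that replicates were grown as separate cultures, these p-values reflect spread among the samples that were sequenced, and that spread may be technical.

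When oligomycin was added to oleic acid in the water arm, Ccnd1 and Ccnd3 fell, and the summed D-type cyclin level fell from 63.8 to 29.4 FPKM. Ccnd2, scarce elsewhere, rose from 0.576 to 3.08 FPKM, with a limit from the filter that is given below. Of the INK4 genes, Cdkn2c fell by 71.3% and Cdkn2d fell by 66.8%, while Cdk6 fell by 33.8% and Cdk4 fell by 12.7%. Cdkn1b did not pass. With doxycycline each of the larger changes was smaller. The test of a difference between the arms passed for 7 of the 8 genes, where 29.7% of all genes tested passed. The 7 include Ccnd2, whose call is not separate from the filter. Cdkn1b is also among the 7, at -0.08 in water and 0.19 with doxycycline, a call lost in 11 of 23 alternatives. Against BSA or oleic acid alone, doxycycline lowered Ccnd1, and among the others only Cdk4 passed, in oleic acid.

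**Figure D1:**
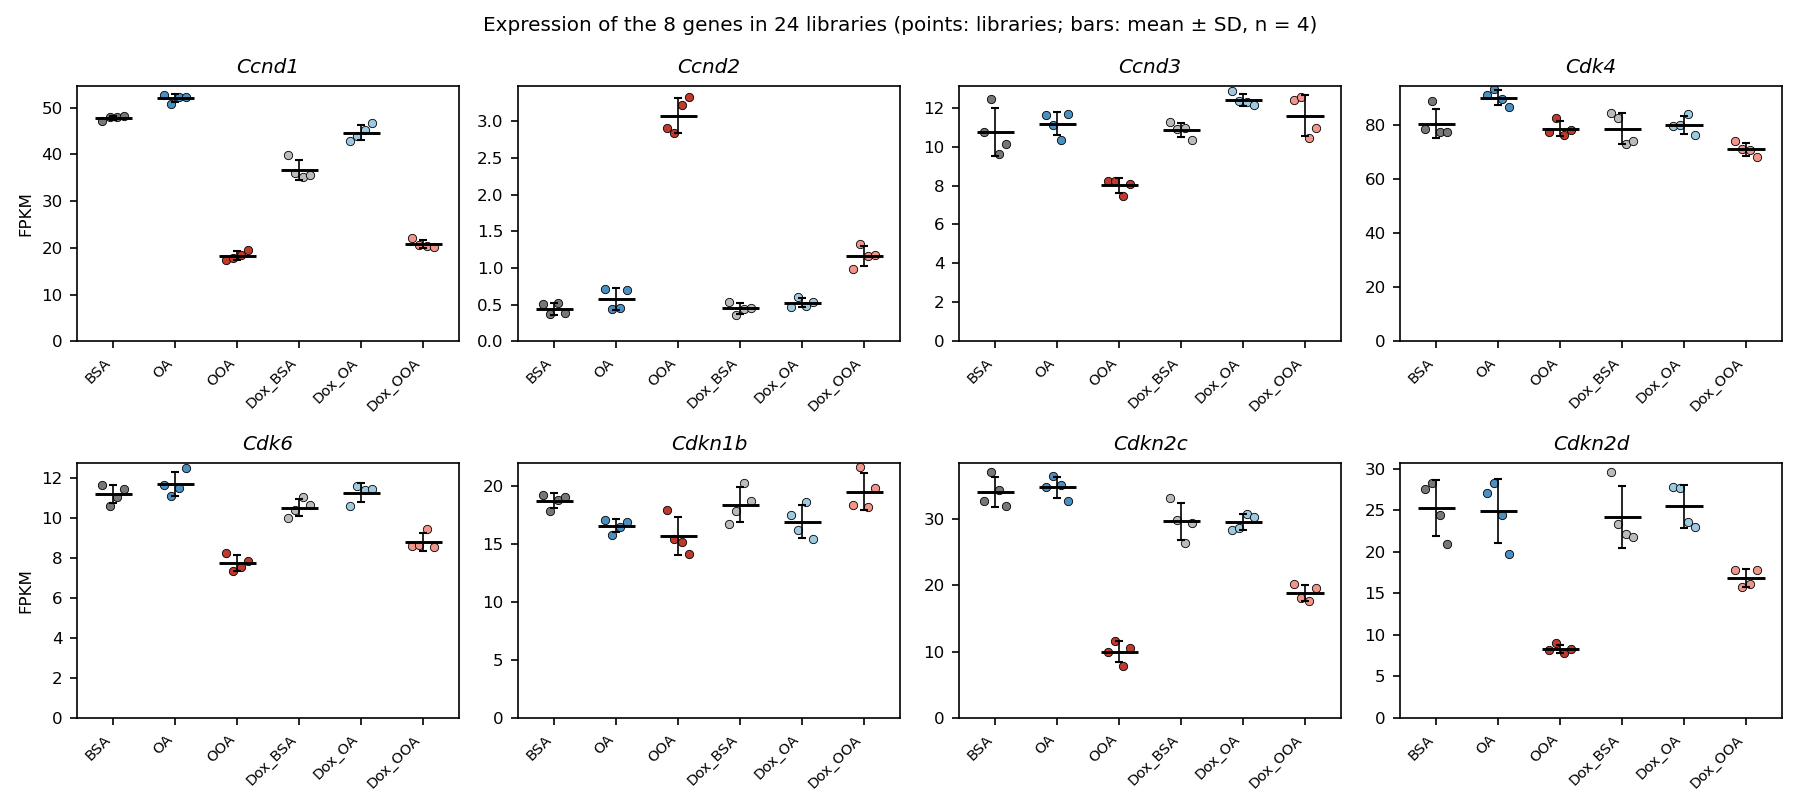
Each panel plots the FPKM of a gene (vertical axis, from 0) in every library of the 6 groups, with points for libraries and bars for the mean ± SD of 4. Ccnd1, Cdkn2c and Cdkn2d are lowest in OOA, next lowest in Dox_OOA and lie higher in the other groups, while Ccnd2 has the opposite order.

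Ccnd1 (ENSMUSG00000070348, chromosome 7, 144483668 to 144493662, minus strand, GRCm39) encodes cyclin D1, the main D-type cyclin of cycling myoblasts. Its level was 47.1, 48.1, 47.9 and 48.2 FPKM in the BSA libraries, 52.7, 50.8, 52.2 and 52.4 in OA, and 17.4, 17.9, 18.5 and 19.6 in OOA. With doxycycline it was 39.9, 36.1, 35.1 and 35.6 FPKM in Dox_BSA, 42.8, 44.0, 45.2 and 46.6 in Dox_OA, and 22.2, 20.5, 20.5 and 20.1 in Dox_OOA. OA was highest, then BSA, Dox_OA, Dox_BSA, Dox_OOA and OOA, and no library of any of these groups overlapped with those of the next. With oligomycin Ccnd1 fell by 64.8% in the water arm, a log2 change of -1.46 ± 0.04 (SE, limma adjusted p = 2.12e-18), and fell by 53.4% in the doxycycline arm (-1.07 ± 0.04, limma adjusted p = 8.49e-15). The oligomycin response was weaker with doxycycline by 0.39 ± 0.06 log2 units (limma adjusted p = 1.67e-05). Within OOA medium Ccnd1 was higher with doxycycline by 0.18 ± 0.04 (limma adjusted p = 0.00125).

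Ccnd1 also passed for doxycycline without oligomycin, in both BSA and OA. In BSA it fell by 23.3%, a log2 change of -0.37 ± 0.04 (limma adjusted p = 4.01e-06), and it was the only member of the 8 to pass where 2.18% of all genes tested did. In oleic acid it fell by 14.1%, a log2 change of -0.22 ± 0.04 (limma adjusted p = 0.00148), beside 11.3% of all genes. The doxycycline difference in Ccnd1 was thus downward in BSA and OA and upward in OOA. Oleic acid against BSA raised Ccnd1 by 0.28 ± 0.04 in the doxycycline arm (limma adjusted p = 6.83e-05), the only member to pass there, beside 6.71% of all genes. In the water arm the difference was 0.12 ± 0.04 (limma adjusted p = 0.084) and did not pass. The difference between these oleic acid responses was 0.16, with a 95% interval of 0.04 to 0.28, and did not pass over all genes (limma adjusted p = 0.362). An overlapping gene on the opposite strand, LTO1 as the file spells it, averaged 1.84 to 2.36 FPKM across the groups. The labels do not say whether reads were counted by strand.

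Ccnd2 (ENSMUSG00000000184, chromosome 6, 127102125 to 127129156, minus strand) encodes cyclin D2, which substitutes for cyclin D1 in many cell types. It was the rarest member. Its level was 0.509, 0.365, 0.521 and 0.380 FPKM in BSA, 0.706, 0.436, 0.457 and 0.705 in OA, and 2.91, 2.84, 3.22 and 3.33 in OOA. The doxycycline libraries held 0.531, 0.362, 0.440 and 0.453 FPKM in Dox_BSA, 0.472, 0.608, 0.486 and 0.534 in Dox_OA, and 0.991, 1.33, 1.16 and 1.17 in Dox_OOA. Every OOA library was above every Dox_OOA library, those were above all others, and the 4 groups without oligomycin overlapped. These values rest on 79 to 195 reads per library in BSA and OA and on 597 to 709 reads in OOA.

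The mean FPKM of Ccnd2 was 5.34 times as high in OOA as in OA and 2.22 times as high in Dox_OOA as in Dox_OA. On the log2(FPKM + 1) scale, which understates changes of such low values, the rises were 1.37 ± 0.09 (limma adjusted p = 9.25e-12) and 0.50 ± 0.09 (limma adjusted p = 0.000155). With a pseudocount of 0.1 they were 2.26 and 1.02, and from limma-voom on recovered reads 2.39 and 1.14. The oligomycin response was smaller with doxycycline by 0.87 ± 0.13 (limma adjusted p = 1.43e-05), and Dox_OOA was 0.91 ± 0.09 below OOA (limma adjusted p = 1.84e-08). Ccnd2 entered the test only through its oligomycin libraries, since the filter asked for 1 FPKM in at least 4 libraries. Its calls in comparisons that use those libraries are therefore not separate from the filter. It is kept below as a member with that limit.

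Ccnd3 (ENSMUSG00000034165, chromosome 17, 47815976 to 47910616, plus strand) encodes cyclin D3. It was at 10.8, 12.5, 9.62 and 10.1 FPKM in BSA, 11.6, 11.1, 10.4 and 11.7 in OA, and 8.22, 8.24, 7.47 and 8.09 in OOA. With doxycycline it was at 11.3, 10.9, 10.9 and 10.4 FPKM in Dox_BSA, 12.8, 12.3, 12.3 and 12.1 in Dox_OA, and 12.4, 12.5, 10.5 and 10.9 in Dox_OOA. The OOA libraries lay below all others, and the remaining groups overlapped with their neighbours in the order of means. With oligomycin Ccnd3 fell by 28.4% in the water arm (-0.44 ± 0.06, limma adjusted p = 3.16e-06). In the doxycycline arm the change was -0.09, with a 95% interval of -0.23 to 0.04 (limma adjusted p = 0.275), and did not pass. The responses differed by 0.34 ± 0.09 (limma adjusted p = 0.00515). In OOA medium Ccnd3 was 1.45 times as high with doxycycline as with water (0.48 ± 0.06, limma adjusted p = 1.34e-06). Bysl overlaps Ccnd3 by 361 bases on the opposite strand and averaged 12.9 FPKM in OOA and 7.36 in Dox_OOA, which is the reverse of the order of Ccnd3.

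Summed over the 3 genes, D-type cyclin expression (mean ± SD, n = 4) was 59.0 ± 1.30 FPKM with BSA, 63.8 ± 1.31 with OA and 29.4 ± 1.10 for OOA. In the doxycycline arm the sums were 48.0 ± 2.51 FPKM for Dox_BSA, 57.6 ± 1.37 for Dox_OA and 33.6 ± 1.69 for Dox_OOA. The shares below are of summed FPKM, which is scaled by a single deposited length per gene whatever transcripts were expressed. Ccnd1 held 81.1% ± 1.62 of the sum in BSA, 81.6% ± 0.89 in OA and 62.3% ± 1.19 in OOA, and 77.5% ± 1.00 in Dox_OA and 62.1% ± 1.72 in Dox_OOA. The share of Ccnd2 was 0.900% in OA and 10.5% in OOA, against 0.911% in Dox_OA and 3.48% in Dox_OOA. Ccnd3 held 17.5% in OA and 27.2% in OOA, against 21.5% in Dox_OA and 34.4% in Dox_OOA, so its share was already larger with doxycycline in the absence of oligomycin. The libraries of OOA and Dox_OOA did not overlap in the Ccnd2 share or the Ccnd3 share. These sums and shares were described and not tested.

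**Figure D2:**
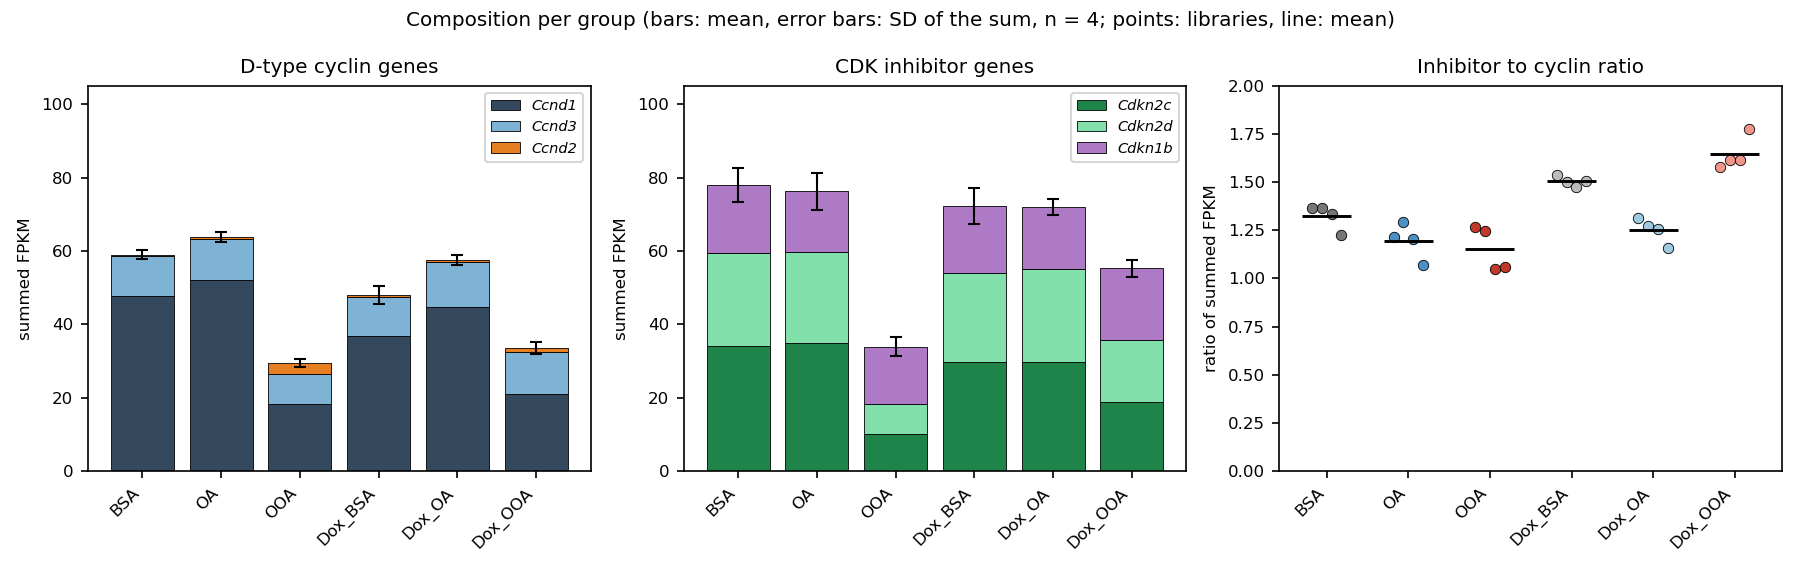
The left and middle panels stack the mean FPKM of the D-type cyclin genes and of Cdkn1b, Cdkn2c and Cdkn2d per group. Error bars give the SD of the sum over 4 libraries. The right panel gives the ratio of summed inhibitor to summed cyclin FPKM per library with the group mean as a line. Both sums are smallest in OOA, and Dox_OOA libraries have the highest ratios, 1.58 to 1.78. Cdkn1a is not in the inhibitor sum or the ratio, and averaged 48.2 FPKM in OOA and 25.4 in Dox_OOA.

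Cdk4 (ENSMUSG00000006728, chromosome 10, 126899403 to 126903789, plus strand) was the most abundant member per length and among the least changed. It was at 78.7, 88.8, 77.6 and 77.4 FPKM in BSA, 91.2, 93.3, 89.5 and 86.8 in OA, and 77.5, 82.7, 76.3 and 78.4 in OOA. The doxycycline libraries were at 84.7, 82.7, 73.2 and 74.2 FPKM in Dox_BSA, 79.6, 79.9, 84.2 and 76.5 in Dox_OA, and 74.2, 71.3, 70.8 and 68.3 in Dox_OOA. Neighbours in the order of means overlapped at every step, from OA at the top to Dox_OOA at the bottom. With oligomycin Cdk4 fell by 12.7% in the water arm (-0.19 ± 0.05, limma adjusted p = 0.0018) and fell by 11.2% with doxycycline (-0.17 ± 0.05, limma adjusted p = 0.0108). The difference between these was 0.03, with a 95% interval of -0.12 to 0.17 (limma adjusted p = 0.824), so Cdk4 was the member without a call in that test.

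Cdk4 passed narrowly in 3 further comparisons. Oleic acid against BSA gave 0.16 ± 0.05 (limma adjusted p = 0.0434), the only call among the 8 beside 8.29% of all genes. The BSA library that stood apart, replicate 2 at 88.8 FPKM, lay inside the OA range. This call was lost without BSA replicate 1, 3 or 4 or OA replicate 1, 2 or 3 (limma adjusted p = 0.0791 to 0.133), and without replicate 2 of BSA the value was 0.21. It was also lost without the low-value filter (limma adjusted p = 0.0997), with rescaled FPKM (0.0726) and with only the compared groups fitted (0.0802). Doxycycline against water gave -0.17 ± 0.05 in oleic acid (limma adjusted p = 0.0276), lost without OA replicate 1, 2 or 3 or Dox_OA replicate 1, 2 or 4 (limma adjusted p = 0.0503 to 0.0841) and without the low-value filter (0.0683). In OOA medium it gave -0.14 ± 0.05 (limma adjusted p = 0.0197), lost without OOA replicate 2 (limma adjusted p = 0.0697) or Dox_OOA replicate 4 (0.0641), with FPKM rescaled to a fixed sum per library (0.0532) and with limma-voom (0.0824). Tspan31, on the opposite strand, overlaps Cdk4 by 641 bases and averaged 29.1 to 36.0 FPKM across the groups.

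Cdk6 (ENSMUSG00000040274, chromosome 5, 3391485 to 3581008, plus strand), the other kinase that D-type cyclins activate, was expressed far below Cdk4 per length. It was at 11.6, 10.6, 11.0 and 11.4 FPKM in BSA, 11.6, 11.1, 11.5 and 12.5 in OA, and 8.24, 7.34, 7.53 and 7.85 in OOA. With doxycycline it was at 9.98, 10.4, 11.0 and 10.6 FPKM in Dox_BSA, 10.6, 11.6, 11.4 and 11.5 in Dox_OA, and 8.58, 8.64, 9.43 and 8.52 in Dox_OOA. OOA lay below Dox_OOA and both lay below every other library, while the other 4 groups overlapped. Cdk6 fell by 33.8% with oligomycin in water (-0.54 ± 0.05, limma adjusted p = 9.76e-10) and fell by 22.0% with doxycycline (-0.33 ± 0.05, limma adjusted p = 9.13e-06), and the responses differed by 0.21 ± 0.07 (limma adjusted p = 0.0167). Cdk4 made up 88.5% of the summed Cdk4 and Cdk6 level in OA and 91.0% in OOA.

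The INK4 genes Cdkn2c and Cdkn2d gave the largest falls among the 8 with oligomycin in the water arm, while in the doxycycline arm Ccnd1 fell most. Cdkn2c (ENSMUSG00000028551, chromosome 4, 109518073 to 109524386, minus strand) encodes p18. It was at 32.8, 37.1, 34.4 and 32.1 FPKM in BSA, 34.8, 36.5, 35.1 and 32.7 in OA, and 10.0, 11.6, 7.77 and 10.5 in OOA. With doxycycline it was at 33.2, 29.9, 26.3 and 29.4 FPKM in Dox_BSA, 28.4, 28.7, 30.8 and 30.4 in Dox_OA, and 20.1, 18.1, 17.6 and 19.6 in Dox_OOA. The OOA libraries were lowest, the Dox_OOA libraries came next without overlap, and the other groups lay above both and overlapped with their neighbours. Cdkn2c fell by 71.3% with oligomycin in water (-1.72 ± 0.08, limma adjusted p = 2.26e-14) and fell by 36.1% with doxycycline (-0.62 ± 0.08, limma adjusted p = 2.99e-06), a difference of 1.10 ± 0.12 (limma adjusted p = 1.3e-07).

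Cdkn2d (ENSMUSG00000096472, chromosome 9, 21199706 to 21202703, minus strand) encodes p19, an INK4 protein distinct from the p19 of the Cdkn2a locus. It was at 27.5, 28.3, 24.4 and 20.9 FPKM in BSA, 27.1, 28.3, 24.4 and 19.7 in OA, and 8.11, 8.99, 7.74 and 8.24 in OOA. The doxycycline libraries were at 29.7, 23.3, 22.1 and 21.7 FPKM in Dox_BSA, 27.8, 27.6, 23.6 and 22.9 in Dox_OA, and 17.8, 15.7, 16.1 and 17.8 in Dox_OOA. Its groups fell into the same 3 levels as those of Cdkn2c, again with OOA and Dox_OOA apart from each other and from the rest. Cdkn2d fell by 66.8% with oligomycin in water (-1.47 ± 0.11, limma adjusted p = 7.97e-11) and fell by 33.9% with doxycycline (-0.57 ± 0.11, limma adjusted p = 0.000301), a difference of 0.91 ± 0.15 (limma adjusted p = 7.94e-05). In OOA medium Cdkn2c was 1.89 times and Cdkn2d 2.04 times as high with doxycycline as with water (limma adjusted p = 7.35e-09 and 1.97e-07). In BSA and in oleic acid neither passed for doxycycline, though Cdkn2c was at -0.19 and -0.23 (limma adjusted p = 0.269 and 0.0743).

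The promoters of this pair are shown because the genes moved together, each over the 250 bases before its annotated start in RefSeq (GRCm38.p6, minus strand, a different build from the expression table). Capitals mark the GC box GGGCGG, known to be bound by SP factors, on either strand. Cdkn2c has a second annotated start, whose promoter holds no such match.
Cdkn2c, chr4:109666757-109667006: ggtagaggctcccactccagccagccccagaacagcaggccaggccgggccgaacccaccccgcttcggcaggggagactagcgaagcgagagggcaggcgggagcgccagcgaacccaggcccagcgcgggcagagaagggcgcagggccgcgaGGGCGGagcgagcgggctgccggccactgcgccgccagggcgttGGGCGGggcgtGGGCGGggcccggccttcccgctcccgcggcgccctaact
Cdkn2d, chr9:21291210-21291459: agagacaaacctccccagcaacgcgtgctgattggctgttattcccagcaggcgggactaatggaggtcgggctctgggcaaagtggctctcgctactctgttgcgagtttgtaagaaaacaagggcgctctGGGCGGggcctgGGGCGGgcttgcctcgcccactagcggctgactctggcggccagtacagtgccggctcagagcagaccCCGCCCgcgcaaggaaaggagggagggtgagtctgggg
Each sequence holds 3 GC boxes, a motif found in 32.7% of 32851 mouse promoters of the same length and looked for after the sequences had been read. The G and C content was 77.2% for the Cdkn2c promoter shown and 63.6% for Cdkn2d, against a median of 52.4% over all promoters. At the second Cdkn2c start it was 42.8%, and which start was used was not tested. Of the 6 members in the promoter table, 5 hold a GC box, Cdk6 being without. That count is by gene over 8 promoters, whereas the 32.7% is by promoter. The E2F motif, searched as TTTGGCGC or TTTCCCGC on both strands and present in 1.3% of promoters, had no match in the 8 promoters of those 6 members. Nor, on both strands, did AP-1 (TGANTCA, in 6.75% of promoters), CRE (TGACGTCA, 1.55%), the ATF4 composite (TGATGNAA, 3.45%) or the E-box form CANCTG (44.8%). The FOXO motif (GTAAACA, 3.17%) had a single match, in a Ccnd3 promoter. The E-box form CACGTG, the one MYC binds best, reads the same on both strands and was also looked for after the sequences had been read. It had 4 matches in the Cdk4 promoter, 1 in that of Cdk6 and none in the other promoters searched, and 6.02% of all promoters hold it. A match or its absence describes these letters only.

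Cdkn1b (ENSMUSG00000003031, chromosome 6, 134897364 to 134902476, plus strand) did not follow the INK4 pair. It was at 19.2, 17.8, 18.8 and 19.1 FPKM in BSA, 17.0, 15.8, 16.5 and 16.9 in OA, and 17.9, 15.4, 15.2 and 14.1 in OOA. With doxycycline it was at 16.7, 17.9, 20.3 and 18.7 FPKM in Dox_BSA, 17.5, 16.2, 18.6 and 15.4 in Dox_OA, and 18.4, 21.6, 18.1 and 19.8 in Dox_OOA. Neighbours in the order of means overlapped at every step, but every Dox_OOA library was above every OOA library. The oligomycin change in water was -0.08, with a 95% interval of -0.22 to 0.06 (limma adjusted p = 0.334). In OOA medium Cdkn1b was 24.5% higher with doxycycline (0.30 ± 0.07, limma adjusted p = 0.000932).

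The oligomycin change of Cdkn1b with doxycycline was 0.19 ± 0.07 (limma adjusted p = 0.0329). Its libraries overlapped between Dox_OA and Dox_OOA, and the call was lost without Dox_OA replicate 2 (limma adjusted p = 0.0836) or 4 (0.118), or Dox_OOA replicate 2 (0.132) or 4 (0.0706). It was also lost without the low-value filter (limma adjusted p = 0.0803) and with only the compared groups fitted (0.0638). The difference between the arms was 0.27 ± 0.10 (limma adjusted p = 0.0361). This call was lost without OA replicate 1, 3 or 4, OOA replicate 2, 3 or 4, Dox_OA replicate 2 or 4, or Dox_OOA replicate 2 or 4, with limma adjusted p-values of 0.051 to 0.0877, and without the low-value filter (0.0885).

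The make-up of the inhibitors differed between the groups. Cdkn1b was 21.8% ± 1.97 (SD, n = 4) of the summed Cdkn1b, Cdkn2c and Cdkn2d level in OA, 46.2% ± 3.89 in OOA and 35.3% ± 2.65 in Dox_OOA. The inhibitor sum was 76.3 ± 4.96 FPKM in OA, 33.9 ± 2.62 in OOA and 55.2 ± 2.37 in Dox_OOA. The sums of these inhibitors and of the D-type cyclins fell in near proportion in the water arm. The ratio of the sums was 1.20 ± 0.09 in OA and 1.15 ± 0.12 in OOA, a difference less than the spread between libraries. With doxycycline the ratio was 1.51 ± 0.03 in Dox_BSA, 1.25 ± 0.07 in Dox_OA and 1.65 ± 0.09 in Dox_OOA, and the lowest Dox_OOA library, at 1.58, was above the highest of every other group. In BSA medium the ratio was 1.32 ± 0.06 with water. These ratios were described and not tested, and transcript ratios do not give the ratio of proteins. Cdkn1a, another inhibitor gene given below, is not in the sum. It averaged 21.0 FPKM in OA, 48.2 in OOA and 25.4 in Dox_OOA. The sums and ratios therefore hold for Cdkn1b, Cdkn2c and Cdkn2d only, not for all CDK inhibitors.

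**Figure D3:**
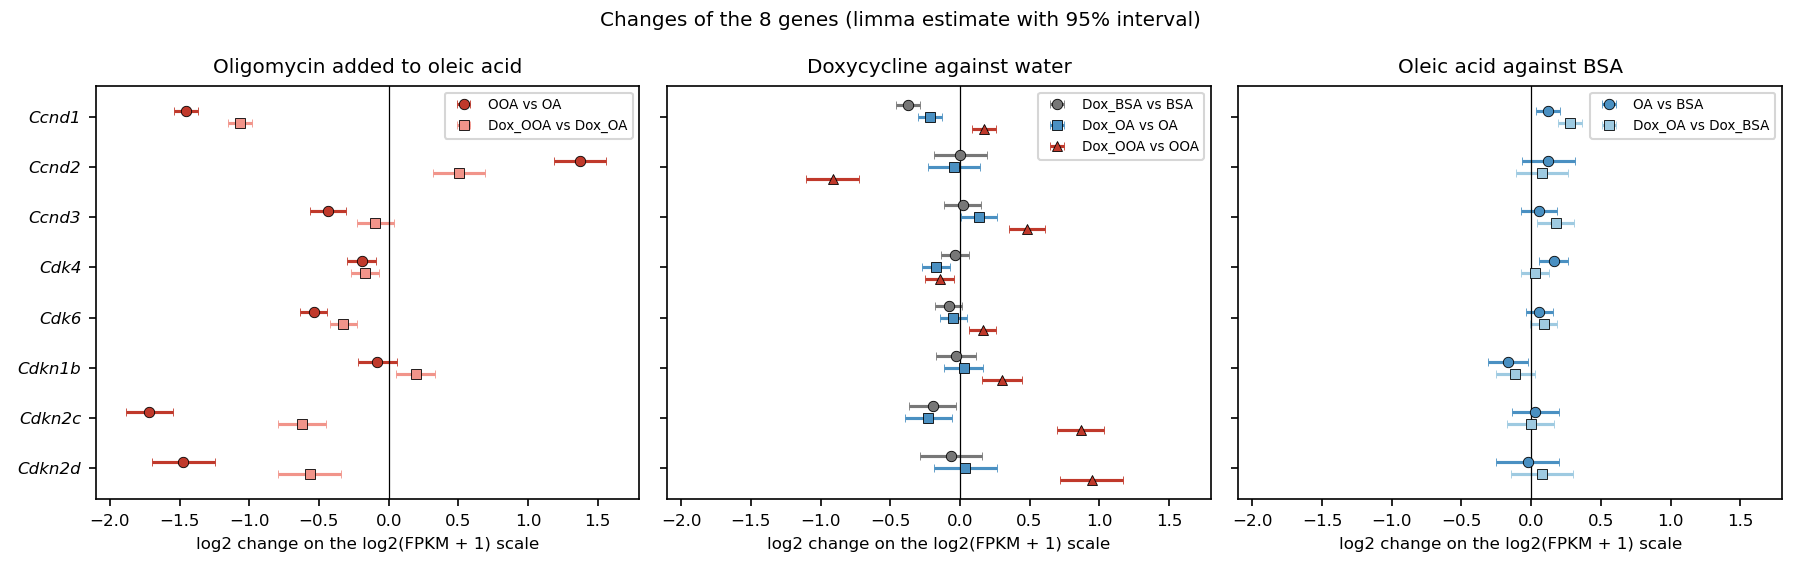
Points give the log2 change of each gene on the log2(FPKM + 1) scale (horizontal axis) with its 95% interval from limma, for oligomycin, doxycycline and oleic acid comparisons in separate panels. Oligomycin changes of Ccnd1, Ccnd2, Cdkn2c and Cdkn2d lie farther from 0 in water (-1.46, 1.37, -1.72 and -1.47) than with doxycycline. Of the doxycycline changes, those of Ccnd2, Ccnd3, Cdk6, Cdkn1b, Cdkn2c and Cdkn2d are farthest from 0 in OOA medium, that of Ccnd1 in BSA (-0.37) and that of Cdk4 in oleic acid (-0.17).

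Counted over the 8 genes, 7 passed for oligomycin in the water arm, 1 higher and 6 lower, where 56.9% of all genes tested passed, 28.5% higher and 28.4% lower. The median log2 change of the 8 was -0.49, against 0.01 for all genes. With doxycycline 7 passed, 2 higher and 5 lower, beside 33.2% of all genes (16.2% higher and 17% lower), and the median was -0.25. For doxycycline in OOA medium all 8 passed, 6 higher and 2 lower, beside 45.7% of all genes (22% higher and 23.7% lower). The difference between the oligomycin responses passed for 7 of 8, 6 with a positive and 1 with a negative sign, beside 29.7% of all genes (15.1% and 14.6%). Ccnd2 is counted among the genes that passed in each of these comparisons, though its calls are not separate from the filter. It was the 1 higher for oligomycin in water and the 1 with a negative sign. The difference between the oleic acid responses passed for 0 of 8 by limma, beside 0.635% of all genes, and only Ccnd1 had an unadjusted p under 0.05 (0.0129). Comparisons that use the same group, such as OOA in 3 of these, are not independent of each other.

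Of the other inhibitors of the same families, 2 were tested and 2 were listed at 0. Cdkn1a, which encodes p21 and is a known target of p53, rose from 21.0 ± 1.94 FPKM in OA to 48.2 ± 1.41 in OOA (1.17 ± 0.06, limma adjusted p = 1.15e-13) and stood at 25.4 ± 1.67 in Dox_OOA. The oligomycin response of Cdkn1a differed between the arms by -0.83 ± 0.09 (limma adjusted p = 1.01e-07), the same sign as Ccnd2 and opposite to the INK4 genes. Cdkn1c, encoding p57, averaged 0.593 to 1.61 FPKM over the water groups and did not pass for oligomycin (limma adjusted p = 0.106 in water and 0.942 with doxycycline). In OOA medium Cdkn1c was higher with doxycycline by 0.42 ± 0.15 (limma adjusted p = 0.0262), while Cdkn1a was lower by 0.90 ± 0.06 (limma adjusted p = 3.26e-11). Cdkn2a and Cdkn2b, the remaining INK4 genes, were listed at 0 in all 24 libraries.

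Downstream of the D-type cyclins, 4 of the 5 cyclin E, cyclin A and CDK2 genes were tested and all 4 fell with oligomycin in water, beside 28.4% of all genes, with a median log2 change of -1.79 against 0.01 for all genes. Ccna2, the S phase cyclin, fell by 2.16 ± 0.04 (limma adjusted p = 1.02e-20), from 70.7 ± 1.49 to 15.1 ± 0.85 FPKM (SD, n = 4), and Ccne1, the cyclin that activates CDK2 at S phase entry, fell by 1.90 ± 0.10 (limma adjusted p = 1.25e-13). In OOA medium all 4 were higher with doxycycline, beside 22% of all genes (Ccna2 0.97 ± 0.04, limma adjusted p = 4.44e-14), and all 4 responses differed between the arms, beside 29.7% of all genes. Of the 13 genes of the RB and E2F family 9 fell and 4 did not pass in water, beside 28.4% of all genes lower, with a median of -0.21. The repressor genes E2f8 and E2f7 changed by -1.89 and -1.65 and the pocket protein gene Rbl1 by -1.35 (limma adjusted p = 1.9e-17, 3.72e-15 and 7.93e-15). Rb1, the substrate itself and named after its value was seen, changed by 0.11, with a 95% interval of -0.02 to 0.24 (limma adjusted p = 0.135).

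Genes that control the proteins of this group moved in both directions. Of 10 genes for turnover of D-type cyclins and p27, 5 rose and 4 fell with oligomycin in water, with a median of 0.07, where 56.9% of all genes passed. One of the risers, Usp2, reached 1 FPKM in OOA alone (1.15 to 1.45 FPKM), so its call is not separate from the filter. Gsk3b, a kinase that marks cyclin D1 for export and degradation, rose by 0.65 ± 0.04 (limma adjusted p = 3.35e-12), and Fbxo31, an F-box gene for cyclin D1, rose by 0.50 ± 0.06 (2.78e-07). Cks1b and Skp2, whose proteins together target p27, fell by 1.18 and 0.71 (limma adjusted p = 1.75e-13 and 3.85e-08). With doxycycline in OOA medium Gsk3b fell by 0.42, while Cryab rose by 0.83 and Cks1b by 0.35 (limma adjusted p = 1.5e-08, 3.39e-08 and 8.1e-05). Cryab, of the same list, averaged 40.3 FPKM in OA and 25.4 in OOA, a fall where Gsk3b and Fbxo31 rose. Of 7 genes for CDK activation and folding 4 fell and 3 did not pass in water, with a median of -0.09. Of all genes, 28.4% were lower and 56.9% passed in either direction. Hsp90aa1, a chaperone gene of this list, changed by -0.64 ± 0.05 (limma adjusted p = 1.08e-10).

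Among 14 genes for transcription factors known to act on D-type cyclin or p27 genes, 4 rose, 5 fell and 5 did not pass with oligomycin in water. This is near the share of all genes (28.5% higher and 28.4% lower), with a median of 0.01. Atf3, a stress-induced repressor or activator of the CREB family, rose by 4.03 ± 0.13 (limma adjusted p = 1.74e-17), from 0.485 to 0.754 FPKM in OA libraries to 23.4 to 26.1 in OOA, and Myc by 1.11 ± 0.06 (6.17e-13). Jun, an AP-1 subunit that can activate Ccnd1, fell by 1.14 ± 0.11 (limma adjusted p = 7.11e-09), and Ctnnb1, the beta-catenin gene, fell by 0.45 ± 0.04 (1.45e-09). In OOA medium Atf3 and Myc were lower with doxycycline by 1.84 and 1.00 on the log2 scale (limma adjusted p = 6.4e-11 and 1.14e-11), while Jun was higher by 0.85 (limma adjusted p = 1.11e-06).

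**Figure D4:**
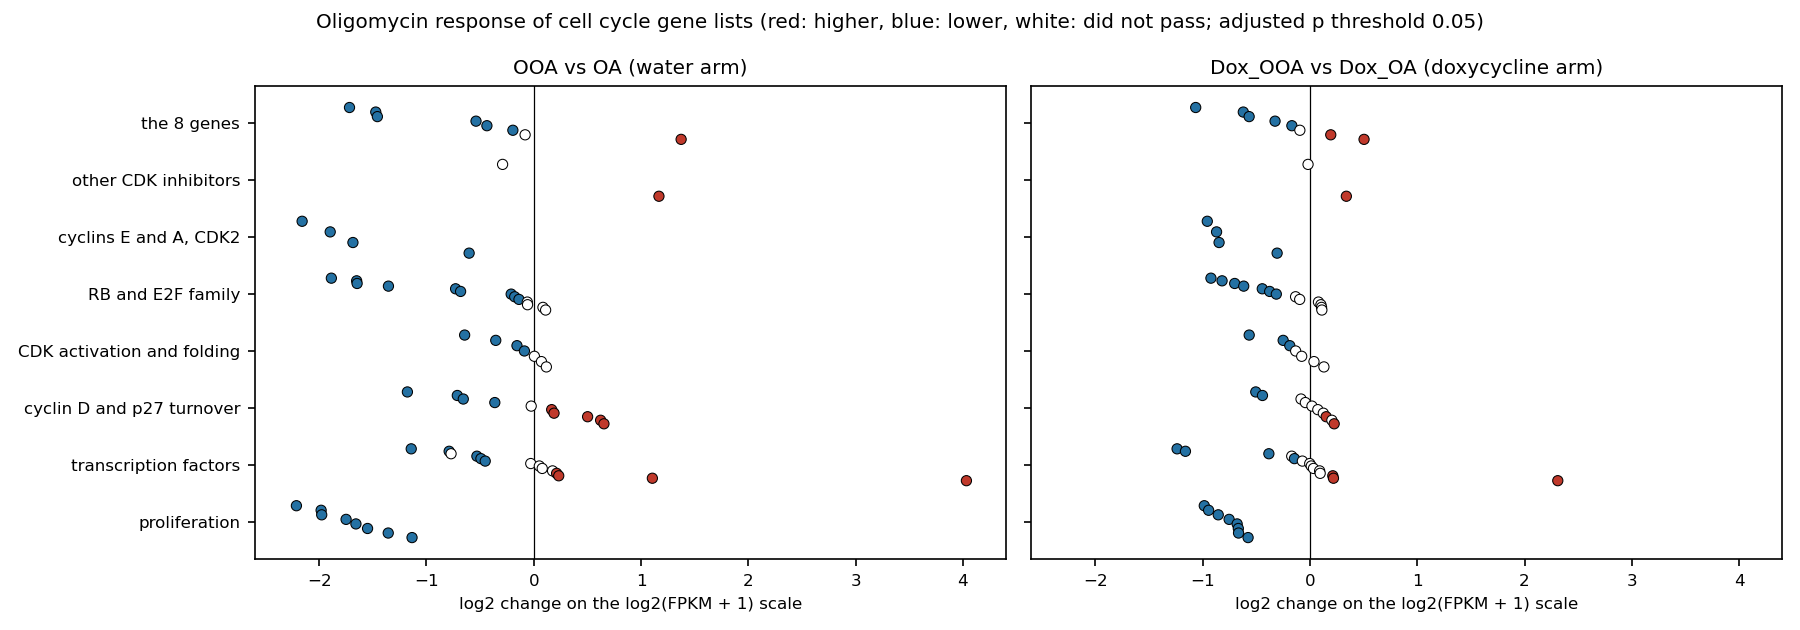
Each point is a gene of a list (vertical axis), placed by its log2 change with oligomycin on the log2(FPKM + 1) scale, in water on the left and with doxycycline on the right, red for higher, blue for lower and white for genes that did not pass at an adjusted p of 0.05. All 8 proliferation genes and all 4 tested cyclin E, cyclin A and CDK2 genes lie below 0 in both arms, and Atf3 is the point at 4.03.

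Proliferation genes moved beside these results. All 8 of a list for DNA replication and mitosis fell with oligomycin in water, beside 28.4% of all genes, with a median of -1.70 against 0.01 for all genes. All 8 were higher with doxycycline in OOA medium (median 0.77, beside 22% of all genes), and all 8 responses differed between the arms (29.7% of all genes). Plk1, a mitotic kinase gene, fell by 2.21 ± 0.06 (limma adjusted p = 4.41e-19) and Cdk1 by 1.75 ± 0.05 (7.8e-19). In oleic acid without oligomycin, 6 of the 8 were lower with doxycycline, with a median of -0.25, where 11.3% of all genes passed in either direction. The summed myotube markers were also lowest in OOA, at 34.9 to 44.5 FPKM, against 70.0 to 111.3 in OA. They were at 60.6 to 71.9 FPKM in Dox_OA and 53.5 to 70.8 in Dox_OOA, which overlapped. Acta1 made up most of these sums, with means of 60.3 FPKM in OA and 24.6 in OOA. The part that a different share of dividing cells or of myotubes had in the changes of the 8 genes was not tested, and in bulk RNA fewer cells of a kind and less RNA per cell cannot be told apart.

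The genes whose levels ran closest to each member over the 24 libraries were found by Pearson's r on log2(FPKM + 1) among 10716 protein-coding genes. The libraries share their treatments, so high values are frequent, and r is given as a description. For Cdkn2c they were Uhrf1, Rrm2 and Tubb5 (0.99 each), and for Cdkn2d Aurkb, Rrm2 and Mcm6 (0.97 each). Uhrf1 maintains DNA methylation at replication, Rrm2 is a subunit of ribonucleotide reductase, and Aurkb is a mitotic kinase. Cdk6 ran closest to Nup155, Birc5 and Atad5 (0.97 each), and Ccnd1 to Efnb2, Nup107 and Rangap1 (0.99, 0.99 and 0.98). Ccnd2 ran with Ahcyl1, Inhba and Pla2g4a (0.99, 0.99 and 0.98). Inhba, which encodes the activin A subunit, averaged 10.7 FPKM in OA, 45.9 in OOA and 19.3 in Dox_OOA. Ccnd3 was nearest to Synpo, Tpm2 and Sdc3 (0.93, 0.91 and 0.91) and Cdk4 was near to Hnrnpab and Eif5a (0.93 and 0.92). Cdkn1b had the weakest neighbours, Lrch2, Gstm1 and Filip1l (0.81, 0.78 and 0.78).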

How the data were processed

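RNA sequencing libraries of 24 samples in 6 groups were compared, with groups and replicate numbers taken from the sample titles. The deposited values were FPKM that the authors had computed for 56748 Ensembl genes, with gene length and coordinates per the file headers. Among the tools that the submitters' processing notes list are the aligners HISAT2 and STAR, with STAR-Fusion, HTSeq, edgeR and DESeq2. Their roles are not stated, and the builds are given as mm39 and GRCm39. Every FPKM above 0, times gene length, was a whole multiple of a single step per library to within 0.01 reads, so that reads could be recovered (20370651 to 29410667 in each library). The size behind the FPKM was 0.965 to 1.03 of that total. A gene's overlap with another on the opposite strand was read from the coordinates in the deposited file.

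The test was run on log2(FPKM + 1) in limma (version 3.58.1, R version 4.3.3; lmFit, then eBayes with trend and robust estimation) over the 12904 genes that reached 1 FPKM in 4 or more libraries. A single fit of 6 group means with 18 residual degrees of freedom gave 7 group differences and 2 interactions, the difference between arms in the response to oligomycin or to oleic acid. Two-sided p-values were adjusted by Benjamini-Hochberg within each contrast, with a threshold of 0.05. The steps were tested on simulated data. Ratios and percent changes of FPKM compare group means.

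The 8 genes and the gene lists were chosen with earlier results of these data known. Named genes were the 8 in every comparison, up to 4 per list and comparison with the smallest p, and the 3 protein-coding genes with the highest r to each of the 8, of which 1 is not reported here. Alternatives were a pseudocount of 0.1, no filter, a filter at 5 FPKM, FPKM rescaled to a fixed sum per library, limma-voom on the recovered reads, a replicate block, a fit of the compared groups alone, and each library left out in turn. Promoters of 6 of the 8 genes came from RefSeq on GRCm38.p6, and the GC box and the E-box form CACGTG were added to the motifs after the sequences were seen.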

Additional observations from a re-analysis of the deposited data

Results flagged for a closer look

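Among 48 sets of 4 libraries (8 genes in 6 groups), 2 held a library far from the other 3, where chance alone gives about 1 in 20. Cdk4 in BSA had a gap of 0.889 of the group's range, from replicate 2 at 88.8 FPKM against 77.4 to 78.7 in the others. Cdk6 in Dox_OOA had a gap of 0.865, from replicate 3 at 9.43 FPKM against 8.52 to 8.64.

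The oligomycin response differed between the water and doxycycline arms for 7 genes, by the interaction term of the limma fit. Of all genes tested, 29.7% passed for this term. The doxycycline arm minus the water arm was 1.10 for Cdkn2c, 0.91 for Cdkn2d, 0.39 for Ccnd1, 0.34 for Ccnd3, 0.27 for Cdkn1b and 0.21 for Cdk6 on the log2 scale, and -0.87 for Ccnd2. For Ccnd1, Cdkn2c, Cdkn2d and Cdk6 the response was a fall in both arms, smaller with doxycycline, and for Ccnd2 a rise in both arms, smaller with doxycycline. Ccnd2 entered the test only through its oligomycin libraries, so its call is not separate from the filter.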

How the results depend on the processing

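Of 34 calls among the 8 genes in 9 comparisons, 29 held under every alternative that gave a value, and none changed sign. The 5 others are the Cdk4 and Cdkn1b calls named above. A filter at 5 FPKM gave no value for Ccnd2, whose calls, not separate from the filter, are among the 29. The count of the 8 genes past the threshold changed as follows. Oleic acid against BSA in water gave 0 without a filter, 0 with rescaled FPKM, 2 with only the compared groups fitted, and 0 to 1 with a library left out, against 1. The 2 were Ccnd1, higher (adjusted p = 0.042), and Cdkn1b, lower (0.0422), and the Cdk4 call was lost there. Doxycycline in oleic acid gave 1 without a filter and 1 to 2 with a library left out, against 2. Oleic acid against BSA with doxycycline gave 2 instead of 1 with limma-voom and with the replicate block, where Ccnd3 was added (adjusted p = 0.0471 and 0.0399, with a range of 0.0399 to 0.241 over its alternatives). With a library left out the counts were 7 to 8 for doxycycline in OOA, 6 to 7 for oligomycin with doxycycline and 6 to 7 for the difference between the oligomycin responses.

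Over all genes, doxycycline in BSA gave 281 calls, 80 with only the compared groups fitted, and 179 without BSA replicate 3, 177 without the fourth BSA library and 173 when Dox_BSA replicate 2 was left out. Doxycycline in oleic acid gave 1458, 935 without a filter and 963 without OA replicate 2. Oleic acid with doxycycline gave 866, and 512 with only the compared groups fitted. Rescaling moved the share of calls that were higher from 56.4% to 38.5% for oleic acid in water and from 37.9% to 54.6% for doxycycline in oleic acid. The cause of these changes was not tested.

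Sign changes were limited to genes that did not pass. Rescaled FPKM gave -0.0088 for Cdkn2c in oleic acid against BSA. With a library left out, the lowest and highest values in that comparison were -0.11 and 0.079 for Cdkn2d. For doxycycline in BSA they were -0.025 and 0.032 for Ccnd2, -0.027 and 0.087 for Ccnd3, -0.071 and 0.012 for Cdk4, and -0.073 and 0.015 for Cdkn1b. For doxycycline in oleic acid they were -0.018 and 0.068 for Cdkn1b and -0.063 and 0.10 for Cdkn2d. For oleic acid with doxycycline they were -0.0066 and 0.063 for Cdk4 and -0.058 and 0.049 for Cdkn2c. For the difference between the oleic acid responses they were -0.088 and 0.020 for Cdkn2c and -3e-04 and 0.20 for Cdkn2d.

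Libraries of the same number in different groups correlated with a median r of 0.034 in their deviations from group means (-0.044 to 0.175 over 60 pairs). The median was -0.009 over 180 pairs of different numbers. By mean r, 18 of 24 libraries were closest to those of their own number. The labels state no pairing and the main fit has none, and what libraries of the same number share was not tested. The replicate block changed no other call of the 8 genes than that of Ccnd3 above. Depth limits Ccnd2 most, at 79 to 195 reads in BSA and OA libraries.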
